A study of Mus musculus with 6 samples.

Results

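Markers of liver endothelial cells were read in whole liver of Trim24 knockout and wild type mice. The markers are 37 gene symbols known for roles in liver endothelium, listed by name with earlier results of these data known, and all 37 were among the 23284 genes of the deposited count tables. They were sorted by role into 10 genes of sinusoidal scavenging and clearance, 4 angiocrine ligands, 12 receptors and signalling genes, 8 junction, surface and secreted vascular genes and 3 transcription factors. The knockout group held 3 whole-liver libraries of C57BL6/J mice aged 8 weeks that were homozygous for the Trim24 knockout (Trim24-/-, here KO1, KO2 and KO3), and the wild type group held 3 libraries from mice of the same age and strain (WT1, WT2 and WT3). Trim24 encodes a nuclear receptor cofactor of the TIF1 family. The labels do not describe the knockout allele. They also do not say that each library is a separate mouse, and p-values then measure only library-to-library spread, which may be technical.

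Liver sinusoids are lined by a fenestrated endothelium without a continuous basement membrane. Its cells take up waste macromolecules from blood through the stabilins, the mannose receptor and an inhibitory Fc receptor, and they make coagulation factor VIII. They also send angiocrine signals to hepatocytes: Wnt2 and R-spondin 3 sustain the gene programme around the central vein, and Bmp2 induces hepcidin. Loss of these features with a gain of proteins of other vessel types, such as plasmalemma vesicle associated protein and von Willebrand factor, is called capillarization.

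Reads counted in genes came to 1607276 to 2872421 in the knockout libraries and 1495583 to 1732309 in the wild type libraries, which is 4.22% to 6.69% of the reads counted, so depth was low. CPM below are counts per 1e6 reads in tested genes, scaled by TMM factors, and a gene with 0 counts could still have been present at up to 3 counts, or 1.04 to 2.10 CPM, for counting error only. Trim24 had 3, 2 and 2 counts in KO1 to KO3, against 31, 45 and 44 in WT1 to WT3. Pancreatic acinar genes stood out in KO1 and KO3, where the 27 listed genes summed to 1130, 15.7 and 724 CPM in KO1 to KO3, against 40.5, 15.9 and 12.5 CPM in WT1 to WT3. Endothelial values are therefore also given with KO2 as the only knockout library, a fit that assumes this library to vary like the wild type ones.

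Of the 37 endothelial genes 30 passed the filter on low counts and were tested. Tek rose in the knockout, and Stab2 and Ehd3 fell. These calls were 1 of 30 higher (3.33%), where 3.08% of all 9180 tested genes were called higher, and 2 of 30 lower (6.67%), where 2.65% of all tested genes were called lower (edgeR quasi-likelihood test, Benjamini-Hochberg adjusted p under 0.05). Together 3 of 30 were called, and 5.73% of all tested genes. The fitted change was positive for 11 of the 30 and for 50.8% of all tested genes. The groups did not overlap for 11 of the 30 (36.7%), 4 of them higher and 7 lower in the knockout, while 25% of all tested genes had such groups (12.4% higher and 12.6% lower). The median log2 fold change of the 30 was -0.12, that of all tested genes 0.01. At an unadjusted p under 0.05, 9 of the 30 passed, where 20.3% of all tested genes did. KO1 was the lowest knockout library for 10 of the 30, KO2 for 14 and KO3 for 6. In whole liver, fewer cells of a type and less RNA per cell cannot be told apart.

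**Figure D1:**
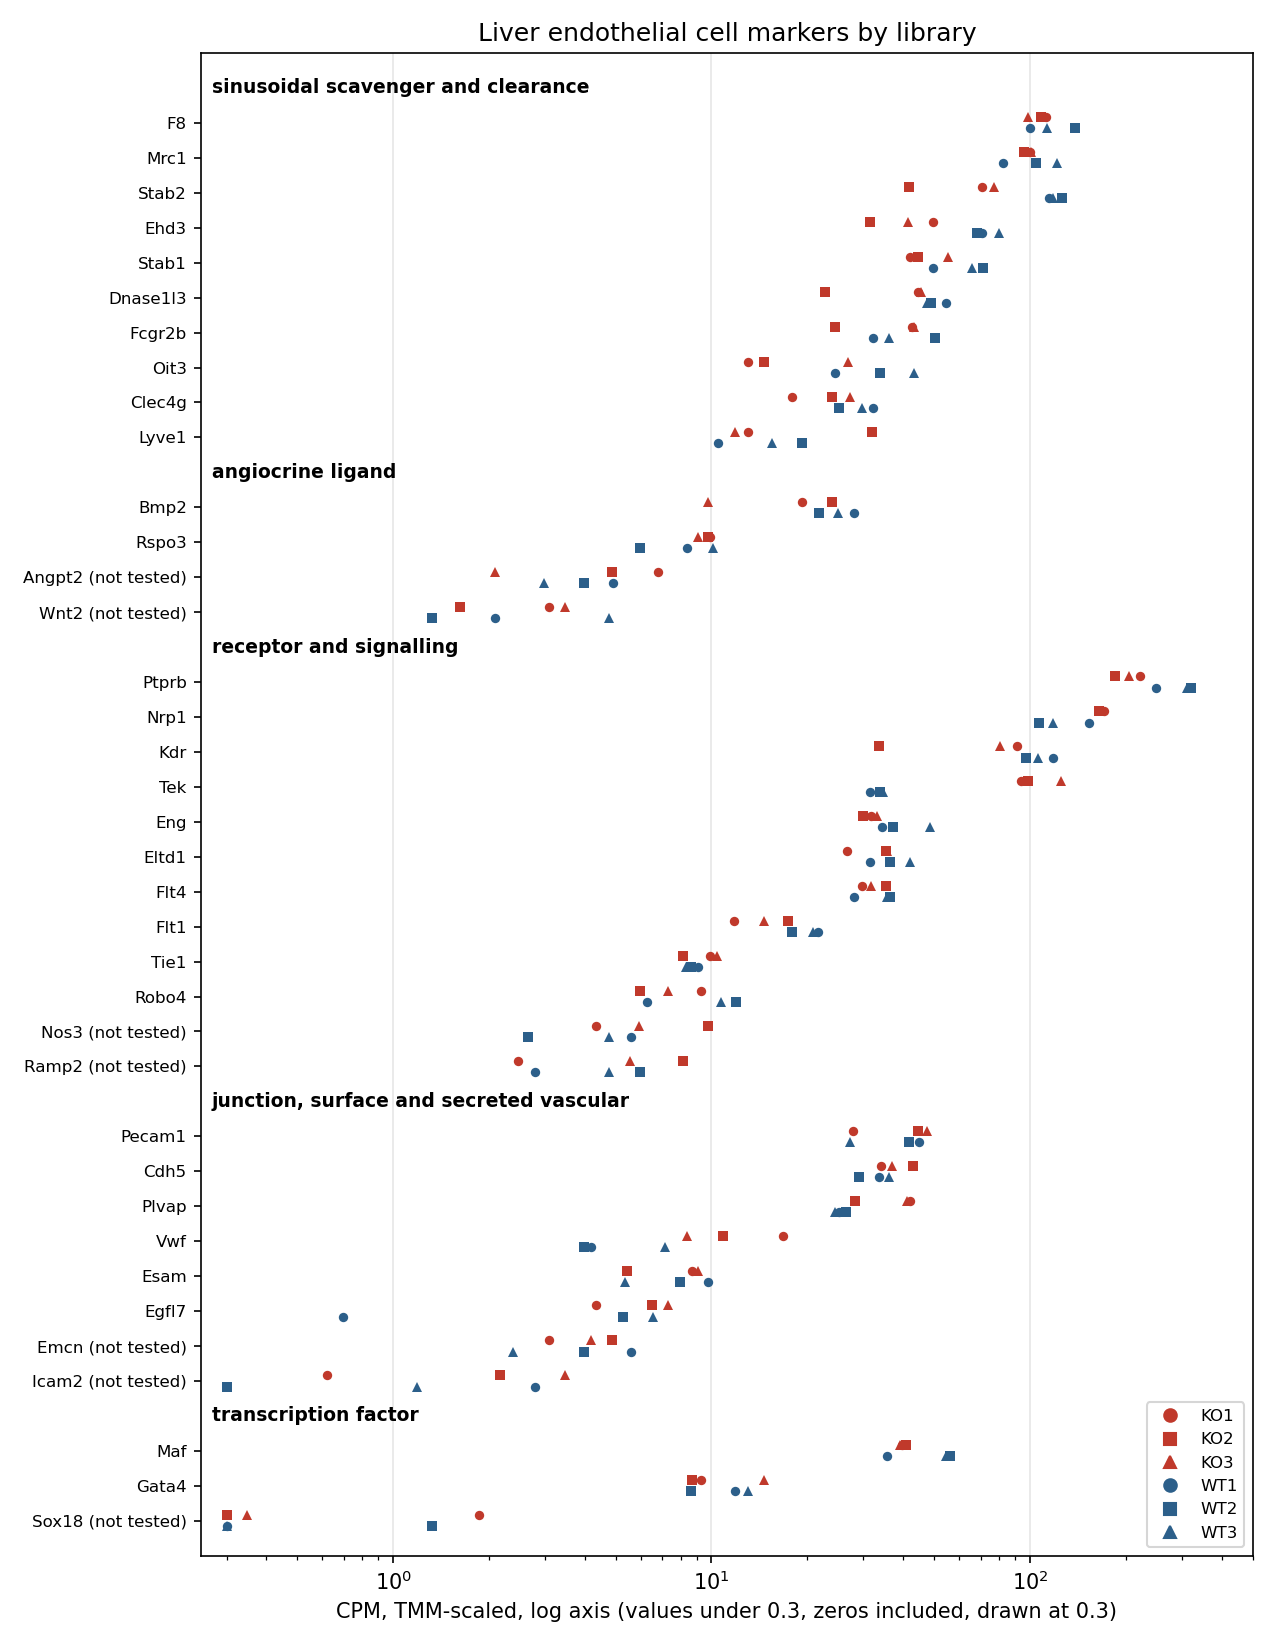
CPM of all 37 endothelial markers on a log axis, by role, with the knockout libraries (red, upper of each pair) and the wild type libraries (blue, lower). The knockout points of Tek lie at 93.5 to 125 CPM, to the right of the wild type points at 31.4 to 34.4 CPM, and those of Stab2 and Ehd3 lie to the left.

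Tek, the receptor tyrosine kinase for angiopoietins also called TIE2, showed the clearest difference. Its level was 93.5, 98.8 and 125 CPM in KO1 to KO3, against 31.4, 33.7 and 34.4 CPM in WT1 to WT3. Every knockout library was far above every wild type library, and the wild type libraries lay close together. The means were 106 ± 17 CPM in knockout and 33.2 ± 1.6 CPM in wild type (SD, n = 3 each), a 3.20-fold rise with a 95% interval of 2.47 to 4.14 (log2 fold change 1.68, SE 0.17, edgeR adjusted p = 9.5e-05). The call held in each of the 17 alternative fits, with KO2 as the only knockout library included (log2 fold change 1.57, adjusted p = 0.00050). Per kilobase of exon, Tek ranked first of the 37 genes in knockout (22.5 CPM per kb) and 15th in wild type (7.05 CPM per kb).

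Other genes of the same receptor system were not called higher. Tie1, the sister receptor of Tek, had 9.91, 8.14 and 10.4 CPM in KO1 to KO3, against 9.08, 8.60 and 8.31 CPM in WT1 to WT3. These groups overlapped, and the interval of the Tie1 fold was 0.708 to 1.73. The ratio of Tek to Tie1 counts within a library, which no scaling factor touches, was 9.44, 12.1 and 12.0 in the knockout libraries and 3.46, 3.92 and 4.14 in the wild type libraries. Ptprb, the endothelial phosphatase that removes phosphate from TIE2, had a lower value in knockout, with 222, 186 and 205 CPM in KO1 to KO3, against 249, 321 and 312 CPM in WT1 to WT3. Its groups did not overlap, but the fold of 0.693 (0.547 to 0.878) missed the threshold (edgeR adjusted p = 0.068). With DESeq2 Ptprb was called lower (adjusted p = 0.049), and likewise with edgeR without a filter on low counts (adjusted p = 0.035). Angpt2, the context-dependent TIE2 ligand of endothelium, had only 11, 9 and 6 counts in KO1 to KO3 and 7, 6 and 5 counts in WT1 to WT3, too few to test. Angpt1, the agonist ligand, had 2 counts or fewer in every library.

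Tek lies on chr4:94739289-94874976 (GRCm38, plus strand), no annotated exon of another gene overlaps its exons, and none of its 36-base exon words occurred in a transcript of another gene. The nearest gene called in either direction was 19.5 Mb away. Stab2 lies on chr10:86841198-87008025 (minus strand), where 141 bases of exon overlap an antisense transcript, Gm16268. Ehd3 lies on chr17:73804134-73832094 (plus strand) with no exon overlap.

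The promoter windows of the 3 called genes are shown because these genes moved and in opposite directions. Each window runs from 250 bases before to 50 bases after a RefSeq start on GRCm38.p6, at chr4:94739039-94739338 (plus strand) for Tek, chr10:87007893-87008192 (minus strand) for Stab2 and chr17:73804591-73804890 (plus strand) for Ehd3, whose RefSeq start lies 707 bases from the GENCODE gene start. Capitals mark GGAAG, which extends the ETS core GGAA by 1 base, and the GATA words AGATAA and TGATAA, on either strand. Only these words were searched, so other forms of ETS and GATA sites are not marked.
Tek: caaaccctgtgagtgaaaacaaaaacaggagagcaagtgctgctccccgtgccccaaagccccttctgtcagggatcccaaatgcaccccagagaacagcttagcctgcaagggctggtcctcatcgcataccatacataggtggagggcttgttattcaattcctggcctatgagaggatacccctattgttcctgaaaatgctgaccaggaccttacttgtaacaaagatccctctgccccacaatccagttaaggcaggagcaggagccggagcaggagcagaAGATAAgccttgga
Stab2: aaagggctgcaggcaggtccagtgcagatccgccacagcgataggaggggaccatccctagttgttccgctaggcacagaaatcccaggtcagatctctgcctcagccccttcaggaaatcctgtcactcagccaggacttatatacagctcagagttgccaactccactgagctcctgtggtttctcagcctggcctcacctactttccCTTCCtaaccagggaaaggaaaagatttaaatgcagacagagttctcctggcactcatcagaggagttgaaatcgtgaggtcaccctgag
Ehd3: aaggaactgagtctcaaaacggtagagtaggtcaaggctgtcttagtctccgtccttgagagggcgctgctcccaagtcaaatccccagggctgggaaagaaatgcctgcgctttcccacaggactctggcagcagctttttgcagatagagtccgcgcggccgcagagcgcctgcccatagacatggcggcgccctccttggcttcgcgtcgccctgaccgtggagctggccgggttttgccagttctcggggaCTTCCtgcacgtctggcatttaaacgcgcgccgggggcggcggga
The Tek window held 1 GATA word, near its 3′ end, and no GGAAG. The Stab2 and Ehd3 windows each held 1 GGAAG, both written as CTTCC on the strand shown, and neither AGATAA nor TGATAA. The shorter core GGAA, or its complement TTCC, also occurred unmarked in the Tek, Stab2 and Ehd3 windows. Of all 32851 windows of this length 71.4% held GGAAG and 18.6% a GATA word on either strand, and of the 21 windows found for 19 of the endothelial genes 19 held GGAAG and 4 a GATA word. These are matches of letters, not measured sites.

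The sinusoidal scavenger and clearance genes were mostly lower in value. All 10 were tested, 2 fell and 0 rose, where 2.65% of all tested genes were called lower and 3.08% higher. Of the 10, 1 had a positive fitted change, as 50.8% of all tested genes had, and the median log2 change was -0.35. Stab2, the main hyaluronan clearance receptor of the sinusoid, had 70.6, 41.8 and 76.9 CPM in KO1 to KO3, against 115, 126 and 118 CPM in WT1 to WT3. All knockout libraries were below all wild type libraries, and KO2 was lowest. Stab2 fell to 63.1 ± 18.7 CPM in knockout, against 119 ± 6 CPM in wild type (SD, n = 3 each), a fold of 0.532 with a 95% interval of 0.394 to 0.717 (log2 fold change -0.91, SE 0.20, edgeR adjusted p = 0.017). The call ended without WT2 or WT3 (adjusted p = 0.068 and 0.065), and with KO2 as the only knockout library the log2 fold change was -1.52.

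Ehd3, an endocytic recycling protein found in liver mainly in sinusoidal endothelium, had 49.5, 31.5 and 41.4 CPM in KO1 to KO3, against 70.5, 68.1 and 80.2 CPM in WT1 to WT3. Its groups were well apart, again with KO2 lowest. Ehd3 fell to 40.8 ± 9.0 CPM in knockout, against 72.9 ± 6.4 CPM in wild type (SD, n = 3 each), a fold of 0.558 with a 95% interval of 0.423 to 0.735 (log2 fold change -0.84, SE 0.19, edgeR adjusted p = 0.017). Leaving out KO2, WT1 or WT3 ended the call, with adjusted p = 0.074, 0.053 and 0.097. With KO2 as the only knockout library the log2 fold change of Ehd3 was -1.22.

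The other scavenger genes did not pass the threshold. Oit3, a zona pellucida domain protein of the sinusoid, had 13.0, 14.7 and 26.8 CPM in KO1 to KO3, against 24.4, 33.7 and 43.3 CPM in WT1 to WT3. KO3 lay above WT1, and the fold of 0.554 (0.358 to 0.860) had an edgeR adjusted p = 0.12. Oit3 was called lower without a filter on low counts (adjusted p = 0.011) and without KO3 (adjusted p = 0.028). Stab1, the other stabilin, had 42.1, 44.5 and 55.3 CPM in KO1 to KO3, against 49.6, 71.4 and 65.9 CPM in WT1 to WT3, with KO3 above WT1. Its interval of 0.579 to 1.01 holds both no change and a fold near 0.6, and the difference between the stabilins was not tested. Stab1 shares 112 bases of exon with Nt5dc2 on the opposite strand.

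Dnase1l3, a secreted nuclease that digests chromatin in blood, had 44.6, 22.8 and 45.6 CPM in KO1 to KO3, against 54.5, 48.9 and 47.5 CPM in WT1 to WT3. The groups did not overlap, but KO1 and KO3 came close to WT3, and KO2 stood well below. With KO2 as the only knockout library Dnase1l3 was called lower (log2 fold change -1.14, adjusted p = 0.024), in the fit of all libraries it was not (fold 0.755, 0.532 to 1.07). Clec4g, the sinusoidal lectin LSECtin, had 18.0, 23.9 and 27.1 CPM in KO1 to KO3, against 32.1, 25.1 and 29.7 CPM in WT1 to WT3. F8, coagulation factor VIII, had 113, 108 and 98.8 CPM in KO1 to KO3, against 99.9, 138 and 113 CPM in WT1 to WT3. Both groups overlapped for Clec4g and for F8, with intervals of the fold of 0.577 to 1.13 and 0.715 to 1.15.

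Receptors that macrophages also carry showed no common direction. Mrc1, the mannose receptor, had 100.3, 96.1 and 100.5 CPM in KO1 to KO3, against 82.4, 104 and 122 CPM in WT1 to WT3. Fcgr2b, the inhibitory Fc receptor, had 42.7, 24.4 and 43.1 CPM in KO1 to KO3, against 32.1, 50.3 and 36.2 CPM in WT1 to WT3. Lyve1, a hyaluronan receptor of sinusoids and lymphatics, had 13.0, 32.0 and 11.8 CPM in KO1 to KO3, against 10.5, 19.2 and 15.4 CPM in WT1 to WT3. KO2 was thus highest for Lyve1 and lowest for Fcgr2b, and the fitted sign of each turned when KO2 was left out. Of 36-base words in Fcgr2b exons 7.57% recurred in other genes, Fcgr3 first among them. Of 15 tested Kupffer cell markers 3 were called higher (20%, where 3.08% of all tested genes were), and 0 to 7 with each library left out in turn. DESeq2 called 6 of them higher. Of the 15, 14 had a positive fitted change, as 50.8% of all tested genes had. At an edgeR unadjusted p under 0.05, 11 of the 15 passed, where 20.3% of all tested genes did. On the CPM scale the 16 listed summed to 449, 805 and 827 CPM in KO1 to KO3, against 285, 512 and 394 CPM in WT1 to WT3, with KO1 below WT2. Their part in the scavenger values was not tested.

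**Figure D2:**
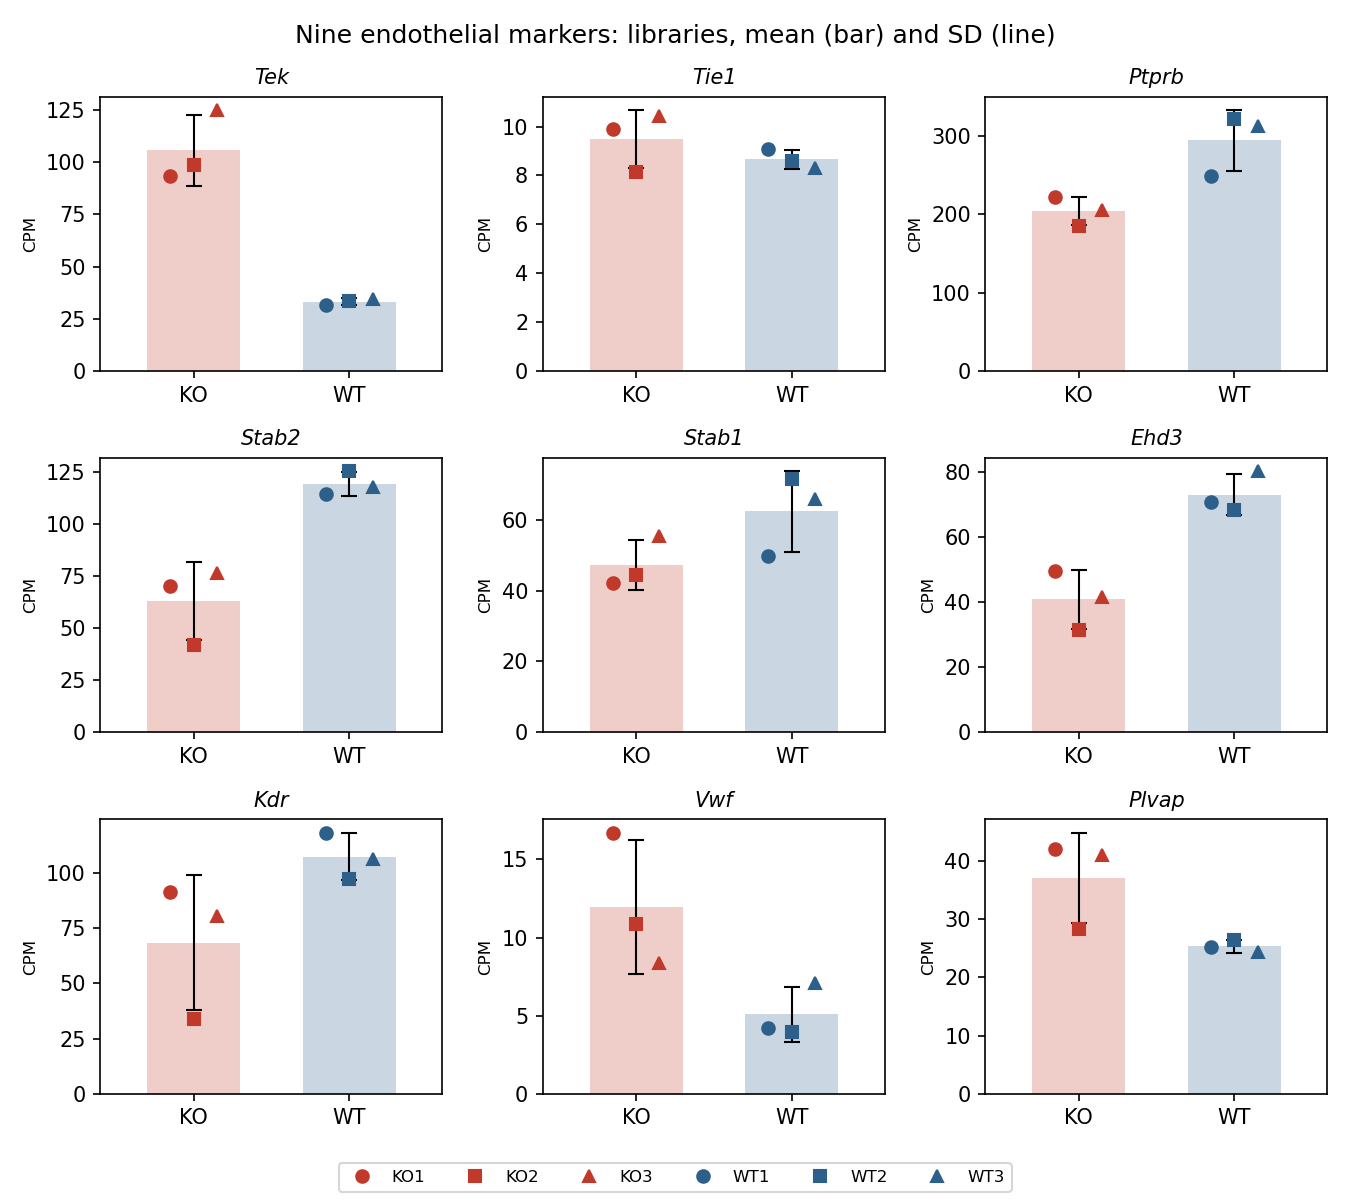
CPM of 9 endothelial markers in each library (points), with the group mean (bar) and SD (line), knockout left and wild type right, each axis starting at 0. Tek is higher and Stab2 and Ehd3 are lower in every knockout library than in every wild type library, while Tie1 and Stab1 overlap and KO2 stands low for Kdr.

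Among the VEGF receptors and co-receptors no gene was called. Kdr, the main signalling receptor for VEGF-A, had 91.0, 33.6 and 80.4 CPM in KO1 to KO3, against 118, 97.2 and 106 CPM in WT1 to WT3. The groups did not overlap, with KO2 far below the other knockout libraries. The fold was 0.639 (0.430 to 0.951, edgeR adjusted p = 0.19). Without KO2 the log2 fold change of Kdr was -0.32, and with KO2 alone it was -1.67 (adjusted p = 0.00098), so its size rested on KO2. Without a filter on low counts Kdr was also called lower (adjusted p = 0.0074). Flt1, the high-affinity VEGF receptor, ranged from 11.8 to 17.4 CPM in knockout and from 17.9 to 21.7 CPM in wild type, which did not overlap (fold 0.730, 0.508 to 1.05).

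Flt4, the VEGF-C receptor of lymphatic and sinusoidal endothelium, had 29.7, 35.3 and 31.7 CPM in KO1 to KO3, against 27.9, 36.4 and 35.6 CPM in WT1 to WT3, which overlapped throughout. Nrp1, a semaphorin and VEGF co-receptor that other liver cells also express, had 171, 164 and 166 CPM in KO1 to KO3, against 154, 107 and 118 CPM in WT1 to WT3. The knockout libraries of Nrp1 were higher without overlap, by 1.32-fold (1.04 to 1.69), which missed the threshold (edgeR adjusted p = 0.18). No gene among the 7 tested VEGF and angiopoietin partners was called. The 7 were Vegfa, Angptl4, Nrp2, Plxnd1, Ephb4, Foxo1 and Akt1. The ligands Vegfb, Vegfc, Figf, Pgf and Angpt1 had too few counts to test. Vegfa averaged 110 ± 13 CPM in knockout and 86.3 ± 6.6 CPM in wild type, both SD with n = 3. Angptl4, an inhibitor of lipoprotein lipase, averaged 91.9 ± 41.2 CPM in knockout and 154 ± 52 CPM in wild type (SD, n = 3 each). At an edgeR unadjusted p under 0.05, 2 of these 7 passed, where 20.3% of all tested genes did, and DESeq2 called 0. With KO1 left out, or with KO2 as the only knockout library, 1 of them was called lower.

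None of the remaining receptors and signalling genes was called. Eng, a co-receptor for BMP9, had 31.6, 29.8 and 33.1 CPM in KO1 to KO3, against 34.2, 37 and 48.7 CPM in WT1 to WT3, which did not overlap (fold 0.787, 0.587 to 1.06). Eng shares 61 bases of exon with Fpgs on the opposite strand, a gene that fell to 46.1 CPM in knockout, against 78.9 CPM in wild type (edgeR adjusted p = 0.016), and its part in the Eng values was not tested. Eltd1, an adhesion G protein-coupled receptor now named Adgrl4, had 26.6, 35.3 and 35.5 CPM in KO1 to KO3, against 31.4, 36.4 and 42.2 CPM in WT1 to WT3. Robo4, a guidance receptor that stabilises vessels, ranged from 5.97 to 9.29 CPM in knockout and from 6.29 to 11.9 CPM in wild type. Nos3, the endothelial nitric oxide synthase, had 7, 18 and 17 counts in KO1 to KO3 and 8, 4 and 8 counts in WT1 to WT3, and was not tested. Ramp2, the adrenomedullin receptor subunit, had 4, 15 and 16 counts in KO1 to KO3 and 4, 9 and 8 counts in WT1 to WT3. It was not tested either, and both share exon sequence with other genes (Nos3 with Atg9b, Ramp2 with Vps25).

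**Figure D3:**
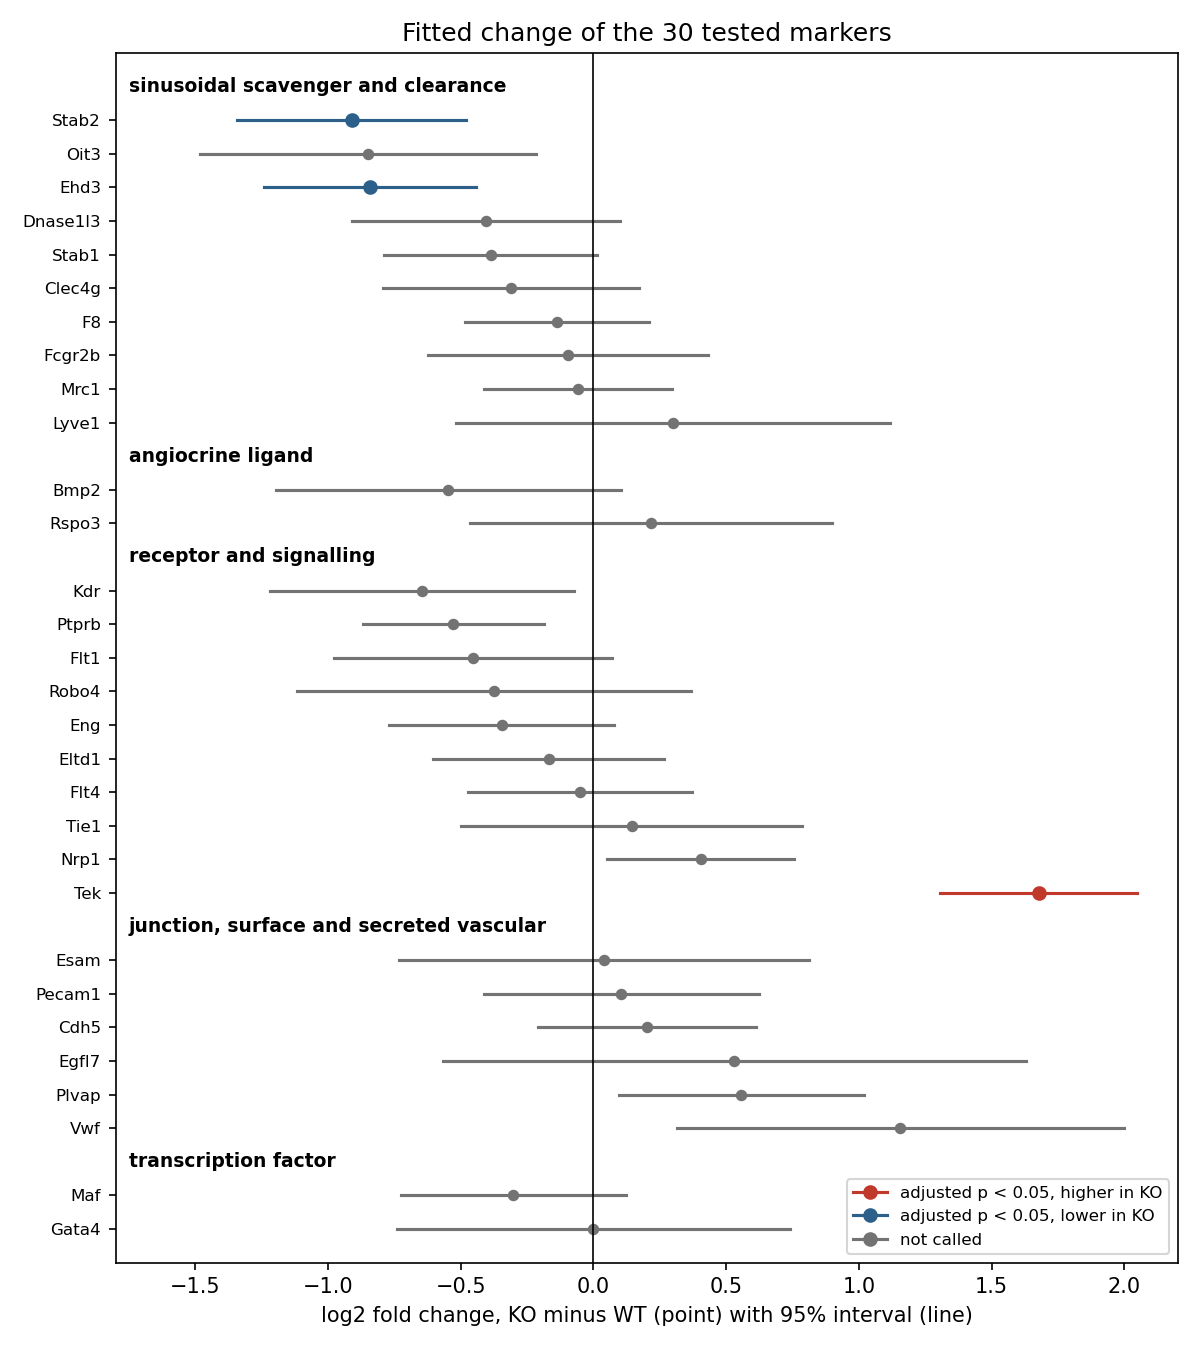
Fitted log2 fold change (knockout minus wild type) of the 30 tested endothelial markers with 95% intervals, ordered within each role. Tek at 1.68 is called higher, Stab2 at -0.91 and Ehd3 at -0.84 are called lower, and the intervals of Oit3, Kdr, Ptprb, Nrp1, Plvap and Vwf miss 0 without a call after adjustment.

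The junction, surface and secreted vascular genes leaned the other way from the scavenger genes in value, without a call. Of 8 genes 6 were tested, and the fitted change was above 0 for all 6 (median log2 0.37), as for 50.8% of all tested genes. It was small for Esam (log2 0.04) and Pecam1 (log2 0.10), whose sign turned in some fits. Groups did not overlap for 2 of the 6, Plvap and Vwf, both higher, where 12.4% of all tested genes had such higher groups. At an edgeR unadjusted p under 0.05, 2 of the 6 passed, where 20.3% of all tested genes did. No member of the group was called by DESeq2, limma-voom or the exact test. Cdh5, the cadherin of endothelial junctions, had 34.1, 42.9 and 36.9 CPM in KO1 to KO3, against 33.5, 29.1 and 36.2 CPM in WT1 to WT3. Pecam1, a junctional adhesion molecule of all endothelium, had 27.9, 44.5 and 47.7 CPM in KO1 to KO3, against 44.7, 41.7 and 27.3 CPM in WT1 to WT3. Both overlapped, with intervals of the fold of 0.865 to 1.53 for Cdh5 and 0.751 to 1.54 for Pecam1.

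Plvap, which forms the diaphragms of fenestrae and caveolae, had 42.1, 28.2 and 41.1 CPM in KO1 to KO3, against 25.1, 26.5 and 24.3 CPM in WT1 to WT3. The knockout libraries were higher, KO2 only just, by 1.47-fold (1.07 to 2.02, edgeR adjusted p = 0.16). Vwf, the platelet-binding von Willebrand factor of larger vessels, had 16.7, 10.9 and 8.35 CPM in KO1 to KO3, against 4.19, 3.97 and 7.13 CPM in WT1 to WT3. The groups did not overlap, though KO3 was close to WT3, and the 2.23-fold difference (1.24 to 3.99) missed the threshold (edgeR adjusted p = 0.11). Vwf rested on 6 to 27 counts a library, and it lies on chromosome 6, as Trim24 does, 87.6 Mb from it and 3.46 Mb from Mug2, a gene that fell strongly. The part of that position was not tested. Egfl7, a secreted vascular guidance protein, ranged from 4.33 to 7.31 CPM in knockout and from 0.699 to 6.53 CPM in wild type, and Esam, a tight junction molecule, from 5.43 to 9.05 CPM in knockout and from 5.34 to 9.78 CPM in wild type. Emcn, a sialomucin of capillaries and veins, and Icam2, an adhesion molecule, had 1 to 12 counts a library in knockout and 0 to 8 in wild type, and were not tested.

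Setting the groups side by side within each library shows the same contrast without a test. The 10 scavenger genes summed to 507, 440 and 527 CPM in KO1 to KO3, against 571, 685 and 671 CPM in WT1 to WT3. The 8 junction, surface and secreted genes summed to 137, 145 and 158 CPM in the knockout libraries and 126, 118 and 110 CPM in the wild type libraries. The ratio of the sums was 3.35 ± 0.33 in knockout and 5.46 ± 0.83 in wild type (SD, n = 3 each), with no overlap. Relative to Cdh5, a reference chosen after its values were seen, Stab2 had 2.07, 0.975 and 2.08 counts per Cdh5 count in KO1 to KO3, against 3.42, 4.32 and 3.26 in WT1 to WT3. On the same scale Ehd3 had 1.45, 0.734 and 1.12 in knockout, against 2.10, 2.34 and 2.21 in wild type, and Tek had 2.75, 2.30 and 3.40 in knockout, against 0.938, 1.16 and 0.951 in wild type. These ratios restate the same counts and are no further support, and Cdh5 itself averaged 37.9 CPM in knockout and 33.0 CPM in wild type.

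**Figure D4:**
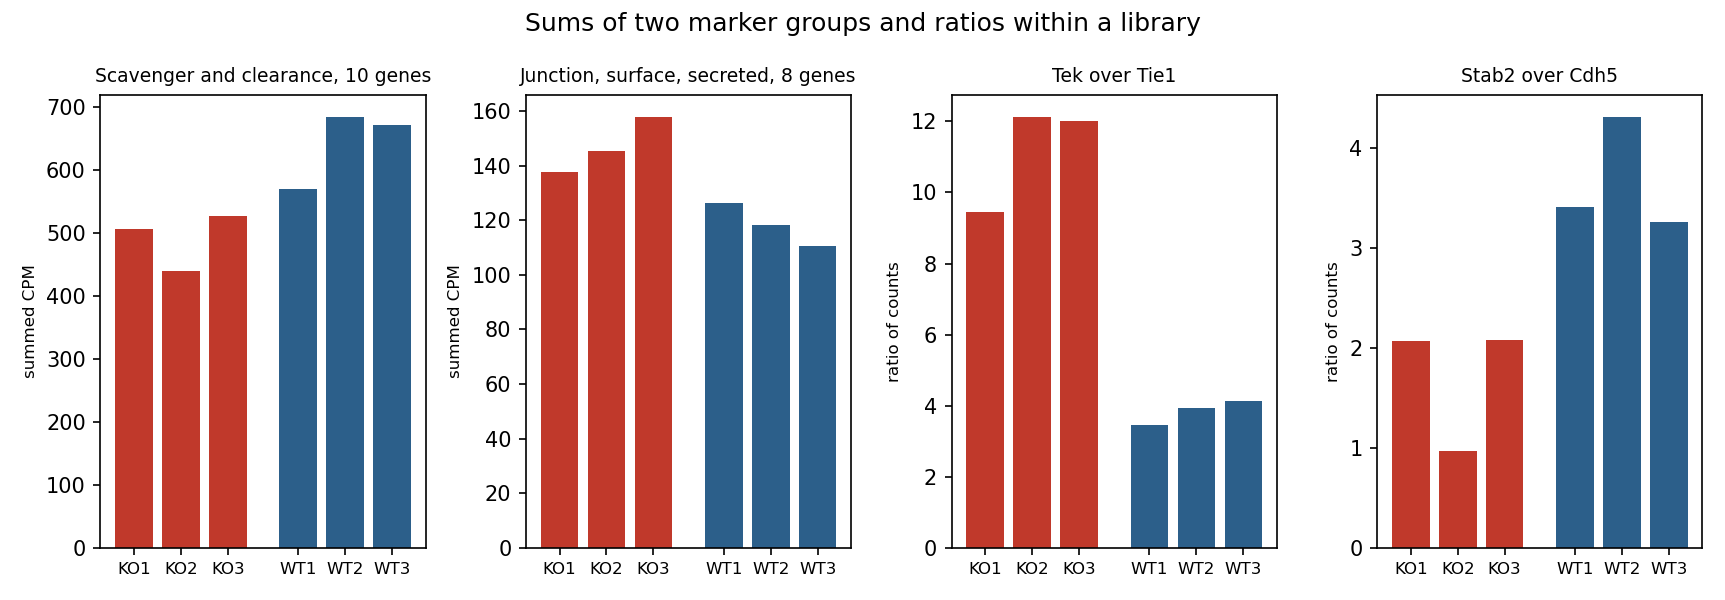
Summed CPM of the scavenger and the junction groups, and ratios of Tek to Tie1 counts and of Stab2 to Cdh5 counts, with 1 bar a library, knockout (red) left of wild type (blue). The scavenger sums are 440 to 527 CPM in knockout and 571 to 685 CPM in wild type, and the Tek to Tie1 ratios are 9.44 to 12.1 in knockout and 3.46 to 4.14 in wild type.

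Of the angiocrine ligands, 2 were deep enough to test. Rspo3, the R-spondin of central vein endothelium that amplifies Wnt signals, had 9.91, 9.77 and 9.05 CPM in KO1 to KO3, against 8.38, 5.95 and 10.1 CPM in WT1 to WT3. The groups overlapped, and the interval of the Rspo3 fold, 0.724 to 1.86, leaves room for a moderate change either way. Rspo3 shares 404 bases of exon with an antisense transcript, Gm48159. Wnt2, the Wnt ligand of the sinusoid, had 5, 3 and 10 counts in KO1 to KO3 and 3, 2 and 8 counts in WT1 to WT3, so a difference was not detectable at this depth. Wnt9b, the central vein Wnt, had 3, 9 and 7 counts in the knockout libraries and 4, 1 and 3 counts in the wild type libraries and was not tested either.

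Of 23 tested genes of the Wnt and R-spondin pathway 4 fell and 0 rose, where 2.65% of all tested genes were called lower. The 4 are genes that hepatocytes around the central vein express, but other such genes on the list were not called. Folds were 0.93 for Rhbg, 1.05 for Lect2, 0.99 for Gulo and 0.96 for Tbx3. Cyp1a2, not called either, had a fold of 0.670 (0.525 to 0.855, edgeR adjusted p = 0.056), and its groups did not overlap. Glul, glutamine synthetase, had 427, 276 and 399 CPM in KO1 to KO3, against 1230, 1234 and 1508 CPM in WT1 to WT3 (fold 0.277, 0.210 to 0.367, edgeR adjusted p = 8.0e-05). Oat, Slc1a2 and Cyp2e1 fell with folds of 0.408 (edgeR adjusted p = 0.00035), 0.273 (0.00058) and 0.440 (0.0040). Every fit run on this list called 4 or 5 genes lower. Of the 23, 5 had a positive fitted change, as 50.8% of all tested genes had. Groups did not overlap for 9 of the 23 lower and 0 higher, where 12.6% and 12.4% of all tested genes had such groups. The universal Wnt targets Axin2 and Rnf43 overlapped between the groups. Averages were 6.57 and 10.9 CPM in knockout, against 5.72 and 8.11 CPM in wild type. The intervals of their folds were 0.578 to 2.15 and 0.774 to 2.18, and Axin2 rested on 5 to 14 counts a library. Znrf3, Lrp5, Fzd4 and Fzd8 had folds of 0.672, 0.662, 0.590 and 0.615, none called, and only Znrf3 overlapped. Lgr4 and Lgr5, receptors for R-spondins, were not called: Lgr5 had 4.33, 5.97 and 6.96 CPM in the knockout libraries and 12.6, 7.27 and 15.4 CPM in the wild type libraries, without overlap.

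Bmp2, the endothelial ligand that induces hepcidin, had 19.2, 23.9 and 9.74 CPM in KO1 to KO3, against 27.9, 21.8 and 24.9 CPM in WT1 to WT3. KO2 lay above WT2 and KO3 was lowest, and the fold of 0.685 (0.437 to 1.07) missed the threshold (edgeR adjusted p = 0.34). None of 20 tested BMP and TGF-beta pathway genes was called, and DESeq2 called 0. At an edgeR unadjusted p under 0.05, 5 of them passed (25%), where 20.3% of all tested genes did. Leaving out KO1 or KO2, or keeping KO2 as the only knockout library, gave 1 gene called lower. Groups did not overlap for 2 of the 20 higher in knockout, Gdf2 and Smad4, and for 2 lower, Hamp and Hamp2. Of all tested genes 12.4% had such groups higher and 12.6% lower. Hamp, hepcidin itself, averaged 911 ± 136 CPM in knockout and 1158 ± 73 CPM in wild type (fold 0.786, 0.623 to 0.993, edgeR adjusted p = 0.23). Hamp2, a second hepcidin gene at low counts, had a fold of 0.387 (0.217 to 0.692, edgeR adjusted p = 0.056). Trfr2, the iron-sensing transferrin receptor 2 (now Tfr2), averaged 258 ± 29 CPM in knockout and 318 ± 60 CPM in wild type (all SD, n = 3 each).

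The transcription factors of sinusoidal identity were not called. Maf, which drives sinusoidal specialisation, had 39.6, 40.7 and 39.0 CPM in KO1 to KO3, against 35.6, 56.2 and 54.6 CPM in WT1 to WT3. WT1 lay below the knockout libraries, and the fold was 0.811 (0.605 to 1.09). Gata4, the factor that keeps sinusoids from becoming capillaries, ranged from 8.68 to 14.6 CPM in knockout and from 8.60 to 13.1 CPM in wild type, a fold of 0.999 with an interval of 0.598 to 1.67. Sox18, a factor of vessel development, had 3, 0 and 1 counts in KO1 to KO3 and 0, 2 and 0 counts in WT1 to WT3.

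Other endothelial genes outside the 37 held 1 call among 19 tested (5.26% higher, where 3.08% of all tested genes were called higher). Ly6a, a surface antigen of larger-vessel endothelium that interferon also induces, had 8.67, 26.1 and 32.4 CPM in KO1 to KO3, against 7.68, 8.60 and 2.97 CPM in WT1 to WT3. KO1 was close to wild type, and the call (3.65-fold, 1.83 to 7.30, edgeR adjusted p = 0.032) ended without KO2, KO3, WT1 or WT2. Gpr182, a sinusoidal chemokine scavenger, had 26.0, 16.3 and 29.9 CPM in KO1 to KO3, against 22.4, 23.1 and 24.9 CPM in WT1 to WT3. Cd34, a surface marker of capillarized endothelium, had 5, 8 and 15 counts in the knockout libraries and 5, 6 and 3 counts in the wild type libraries and was not tested.

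Markers of other liver cells were counted in the same way. Of 14 tested stellate cell markers 2 rose, Col1a2 and Dcn (14.3%, where 3.08% of all tested genes were called higher). DESeq2 called 3 higher, and with each library left out in turn 0 to 3 rose. Of the 14, 13 had a positive fitted change, as 50.8% of all tested genes had. At an edgeR unadjusted p under 0.05, 6 of the 14 passed, where 20.3% of all tested genes did. The 17 listed summed to 865 to 1002 CPM in knockout and 673 to 764 CPM in wild type. Of 16 hepatocyte markers 1 fell, Cebpa (6.25%, where 2.65% of all tested genes were called lower). The number was 0 without KO2, KO3 or any 1 wild type library, and 3 without KO1. DESeq2 called 2 lower. Of the 16, 15 had a negative and 1 a positive fitted change, where 50.8% of all tested genes had a positive one. Groups did not overlap for 6 of the 16, all lower in knockout, where 12.6% of all tested genes had such lower groups. An edgeR unadjusted p under 0.05 was reached by 6 of the 16, and by 20.3% of all tested genes. None of 4 tested cholangiocyte markers was called by edgeR or DESeq2, and 0 had an unadjusted p under 0.05. Their part in the endothelial values was not tested.

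**Figure D5:**
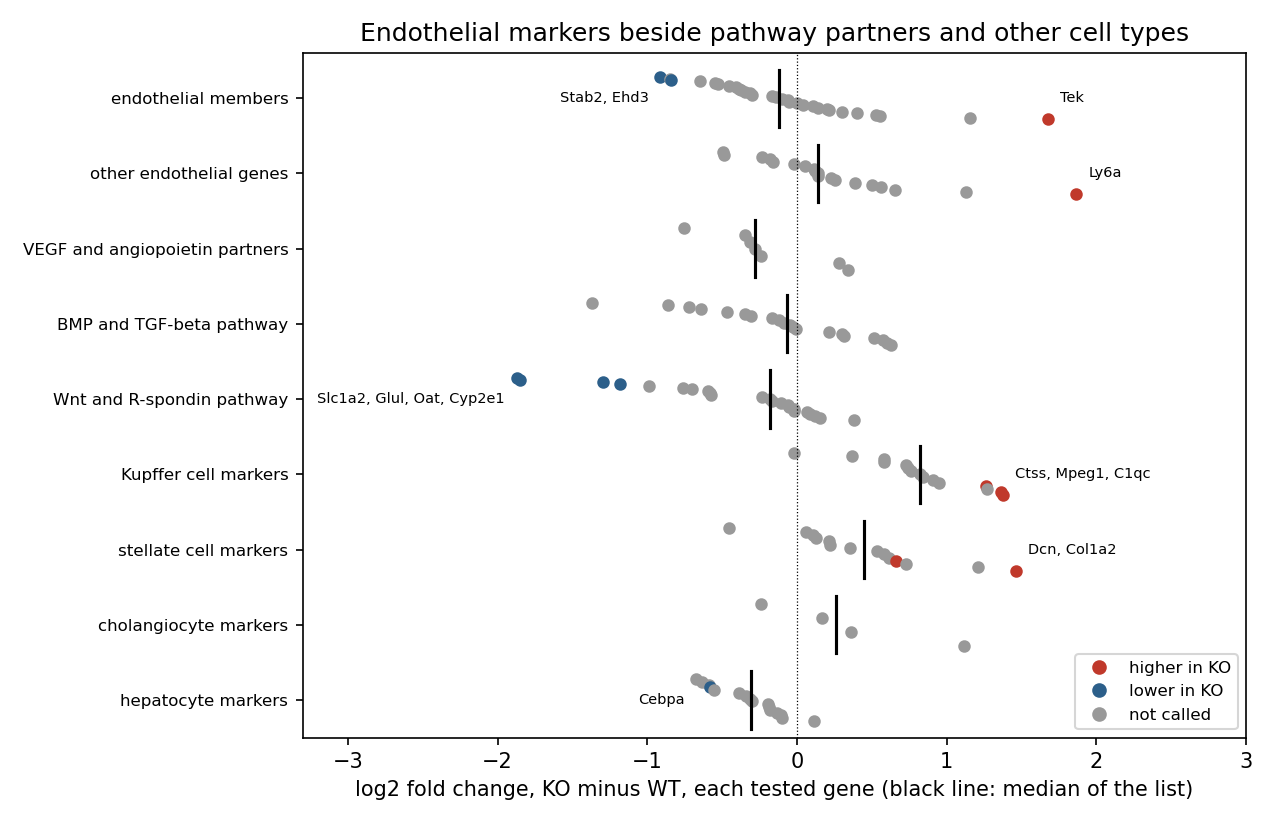
Fitted log2 fold change (knockout minus wild type) of each tested endothelial marker and of the genes of 8 companion lists, 1 point a gene and a black line at each list's median. Called genes are coloured and named, and the medians are -0.12 for the endothelial markers, 0.83 for Kupffer cell markers, 0.45 for stellate cell markers and -0.31 for hepatocyte markers.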

How the data were processed

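The authors deposited raw read counts by gene symbol, 1 table for each of 6 liver libraries. RNA came from TRIzol extracts, per the labels' protocols. TopHat 1.4.1, HTSeq, edgeR and the build mm9 appear in the submitters' processing notes, without roles. No source used here gives the strand setting, so genes with exon overlap on opposite strands cannot be told apart. Reads in no gene (93.3% to 95.8% of reads) and ambiguous reads (0.0130% to 0.0213%) did not enter library sizes or tests, and 0 columns were left unused.

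The counts went through edgeR 4.0.16 (R 4.3.3; quasi-likelihood F test, TMM factors, group as the only term, filterByExpr with a minimum count of 10), with p adjusted over all 9180 tested genes. Standard errors divide the log2 change by √F, and 95% intervals use the t distribution with the fit's degrees of freedom. Alternatives were other scaling factors, DESeq2 1.42.0, limma-voom (limma 3.58.1), the edgeR exact test, other filters and thresholds, the replicate number as a block, removed acinar genes and libraries left out. Same-numbered libraries of the groups deviated together at r = -0.07, 0.08 and 0.03, so the numbers were not taken to pair them.

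The members and companion lists were chosen with earlier results of these data known. Values are given by library for called members, those called in an alternative with all libraries, and tested members averaging at least 20 CPM. Of companion lists, up to 4 called genes are named, or the 2 most abundant where none was called. Lyve1, Rspo3, Tie1, Vwf and the untested members were added after their values were seen. So were, among companion genes, Angpt1, Wnt9b, Axin2, Rnf43, Lgr4, Lgr5, Rhbg, Lect2, Gulo, Tbx3, Cyp1a2, Hamp2, Gpr182 and Cd34. Gdf2, Smad4, Znrf3, Lrp5, Fzd4, Fzd8 and the VEGF and angiopoietin partners other than Vegfa and Angptl4 were likewise added after their values were seen. Annotation is GENCODE M21 (GRCm38), matched for 37 of 37 members. Since the notes name mm9, positions serve for annotation only. Promoters are from RefSeq.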

Additional observations from a re-analysis of the deposited data

How the results depend on the processing

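Depth limits what can be seen: 7 members were too low to test, and several others rest on under 30 counts a library. Of 510 alternative values for members 475 kept their direction and side of the threshold, over 17 alternatives, and Tek was called higher in each. The number of members called lower was 2 and became 5 without a filter on low counts (with Kdr, Oit3 and Ptprb), 4 with KO2 as the only knockout library (an alternative planned for members), and 0 to 3 with each library left out in turn. Genes called on the companion lists were 7 higher and 5 lower. They became 12 higher and 10 lower with KO2 as the only knockout library, chosen for these lists after seeing the data, and 0 to 20 higher and 4 to 10 lower with each library left out. Over all genes the calls, 283 higher and 243 lower, became 576 and 509 without a filter. They became 409 and 363 without KO1, 191 and 107 without KO2, and 203 and 173 without KO3. Without WT1 they were 175 and 143, without WT2 171 and 103, and without WT3 127 and 95. Without a scaling factor the split was 373 higher and 172 lower, with the median of all genes at 0.10 on the log2 scale. The causes were not tested.

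The replicate number as a block gave 11 companion genes called higher and 3 members lower (Ehd3, Stab2 and Oit3, the last with adjusted p = 0.032), with Tek still higher. The numbers were not found to pair the libraries. Of the members, 8 changed sign in some fit, none of them called in either. On the log2 scale Gata4 became 0.018 with upper-quartile scaling, 0.084 without scaling and 8.1e-05 in the exact test. Without scaling Mrc1 became 0.031 and Flt4 0.041. With KO2 as the only knockout library Flt4 became 0.075, Tie1 -0.090 and Esam -0.48. With each library left out in turn, the log2 change lay between -0.32 and 0.14 for Gata4, -0.20 and 0.076 for Mrc1, -0.16 and 0.0089 for Flt4, -0.18 and 0.24 for Esam, -0.099 and 0.29 for Pecam1, -0.28 and 0.59 for Lyve1, and -0.25 and 0.12 for Fcgr2b.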
